A study of Mus musculus with 2 samples.

Results

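Pericytes and vascular smooth muscle cells were examined among the cells released from mouse tendons at P7 (postnatal day 7). Together they are called mural cells here. A cell was taken as mural when it held at least 3 unique molecular identifiers (UMIs, each marking 1 captured transcript) summed over Myh11, Rgs5 and Notch3. It also had to hold fewer than 2 UMIs over the endothelial genes Cdh5, Cldn5 and Tie1, fewer than 5 over the immune genes Tyrobp, Fcer1g, Laptm5 and Ptprc, and under 30 Scx UMIs per 10000. Since measured levels of these genes chose the cells, their levels are given only as a description. The rule kept 231 of 4956 cells, of which 145 of 2364 came from the wild-type library and 86 of 2592 from the mutant library.

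The study asked what becomes of tendon cells that lose TGFβ signaling. The mutant (Tgfbr2;ScxCre, Tgfbr2 f/-) carried a floxed TGFβ type II receptor gene, which a Cre recombinase driven by the tendon transcription factor gene Scx deletes. The control is labelled wild type, although its sample description reads "Het". All mice of the study also carried the ScxGFP reporter, and Ai14 Rosa26-tdTomato (RosaT) served as the Cre reporter. Each library was made from tendons of both forelimbs and hindlimbs of 2 pooled pups, digested with enzymes and sequenced from the 3′ end. ScxCre targets the Scx lineage, and mural cells of the mutant library were not shown to have lost the receptor. There was 1 library per genotype, so no test between genotypes was possible. The intervals given below are 95% intervals that cover counting error only, and differences between pups, litters, dissections and library preparations cannot be told apart from genotype.

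Mural cells wrap the endothelial tube of blood vessels. Smooth muscle cells form the contractile coat of arterioles and arteries, with actin, myosin and their regulators as their most abundant proteins. Pericytes sit within the capillary basement membrane, are recruited by platelet-derived growth factor (PDGF) through its receptor PDGFRβ, and carry potassium channels and regulators of G protein signaling. Notch3 is the Notch receptor of both, and TGFβ is known to induce contractile genes in mural precursors. Many contractile genes are controlled by serum response factor, which binds a 10-base element called the CArG box.

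The CArG box is written as CC, 6 bases that are each A or T, and GG, and it reads the same on both strands. The window searched for each gene start was the 250 bases before it (RefSeq, GRCm38.p6). A CArG box was present for 5 of 32 contractile genes that had a window, 15.6%, against 1.62% of all 27025 genes with a window and 1.47% of all 32851 windows. The 5 were Cnn2, Filip1l, Myl6, Myl9 and Vcl. When 1 letter of the A/T core was allowed to differ, 9 of 32 (28.1%) had a match, against 9.78% of all genes with a window and 8.59% of all windows. None of 11 pericyte genes with a window had either kind of match. Of 10 smooth muscle markers with a window none had a CArG box and 1 (10%) had a match with 1 letter off. The windows of Tagln, Actg2 and Myh11 were not analysed here. Stretches directly before the start are shown for 4 contractile genes because their elements differ in number and distance from the start, with CArG boxes and 1-letter variants in capitals, each read 5′ to 3′ on the strand of the gene. Acta2, smooth muscle α-actin (chr19:34255374-34255523, minus strand), held 2 variants, 84 and 34 bases before the start. Myl9, the regulatory myosin light chain (chr2:156775264-156775463, plus strand), held a CArG box 161 bases and a variant 99 bases before the start. Cnn2, a calponin (chr10:79988500-79988599, plus strand), held a CArG box 56 bases before the start, and Filip1l (chr16:57549142-57549241, plus strand) held one 62 bases before it.
Acta2: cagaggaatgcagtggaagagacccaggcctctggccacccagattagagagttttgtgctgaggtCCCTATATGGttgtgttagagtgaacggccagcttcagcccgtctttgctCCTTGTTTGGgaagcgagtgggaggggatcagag
Myl9: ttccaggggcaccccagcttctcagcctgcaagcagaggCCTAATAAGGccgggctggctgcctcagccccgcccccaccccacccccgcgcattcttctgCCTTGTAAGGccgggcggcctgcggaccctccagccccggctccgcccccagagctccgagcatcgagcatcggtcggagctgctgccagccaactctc
Cnn2: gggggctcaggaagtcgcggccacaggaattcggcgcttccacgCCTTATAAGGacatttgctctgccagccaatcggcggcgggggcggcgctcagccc
Filip1l: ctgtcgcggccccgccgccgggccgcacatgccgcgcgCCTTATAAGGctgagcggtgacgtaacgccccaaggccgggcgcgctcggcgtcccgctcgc
These matches describe letters in the reference sequence and are no measure of binding in these cells.

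Mural cells made up 6.13% of the wild-type library (interval 5.20 to 7.18) and 3.32% of the mutant library (2.66 to 4.08). Depth differed between the libraries. Mural cells held 1050 to 13432 UMIs with a median of 4518 in the wild-type library and 903 to 10750 with a median of 2887 in the mutant library. All other cells had medians of 3820 and 2824. When every cell was thinned at random to 1583 UMIs before the rule was applied, and shallower cells were dropped, 108 of 2147 cells (5.03%, 4.14 to 6.04) and 65 of 2214 cells (2.94%, 2.27 to 3.73) were kept. The intervals of the 2 libraries did not overlap on either scale. The share of released cells can also depend on dissection and digestion, and this was not tested.

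Most mural cells lay well above the limit of 3 UMIs. The median over Myh11, Rgs5 and Notch3 was 17 UMIs for wild-type cells and 13 for mutant cells, and 96 and 57 cells had 10 or more. Just inside the limit, 7 and 4 cells had exactly 3 UMIs, and just outside it 15 and 6 cells had exactly 2. Rgs5 was detected in 95.9% and 90.7% of the cells kept, Myh11 in 63.4% and 51.2%, and Notch3 in 62.1% and 70.9%. The Scx limit removed 9 and 2 cells that had 3 or more UMIs, the endothelial limit 0 and 3, and the immune limit none. A doublet caller marked 1 and 0 of the mural cells. It marked 1.10% and 0.309% of each whole library, so in the mutant library it found too few to be relied on. The libraries shared 2 cell barcodes, and neither belonged to a mural cell.

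Genes outside the rule marked most of the cells as mural. Acta2 was found in 88.3% and 91.9% of mural cells (wild type and mutant throughout), against 10.1% and 4.32% of immune cells, which should lack it and had median depths of 2477 and 1703 UMIs. After thinning the shares were 86.7% and 87.7% against 8.16% and 3.92%. Tagln, the actin-binding protein transgelin, was found in 77.2% and 73.3% of mural cells and in 1.59% and 2.16% of immune cells. Higd1b, a gene typical of pericytes, was found in 29.0% and 50% of mural cells and in none of the 189 and 185 immune cells. All 3 genes were thus well above their share in immune cells. Acta2 was less sharply set apart from all other cells, of which 32.4% and 13.5% held it. Pecam1, an endothelial adhesion molecule gene outside the rule, had 1 UMI over the mural cells of each library. Cdh5 and Ptprc, which the rule limits, had none.

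**Figure D1:**
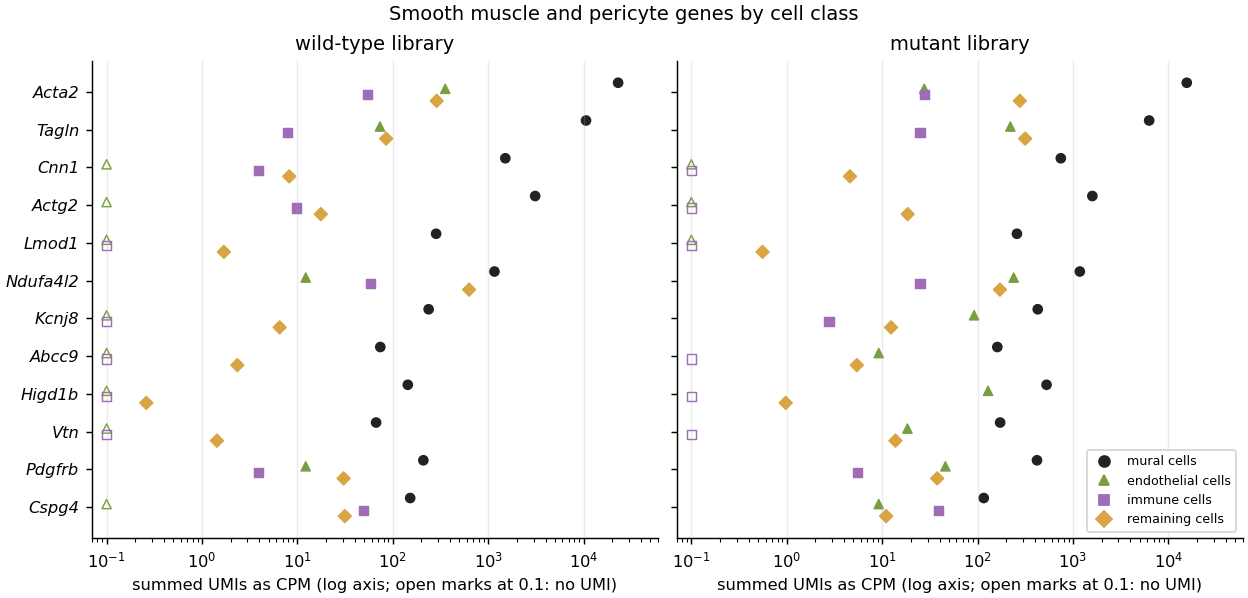
Level of 12 genes in counts scaled to 1000000 UMIs (CPM, log axis) in mural cells and in the other cell classes of the wild-type and mutant libraries, 1 point per class and library, with open marks where no UMI was seen. Acta2, Tagln and Cnn1 stand highest in mural cells in both libraries, and Higd1b has no UMI in immune cells of either library.

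Each library was then asked which genes set its mural cells apart. Levels are summed UMIs of a class, scaled to 1000000 UMIs per class (CPM). Among genes with at least 0.2 UMI per mural cell, 661 of 3412 (19.4%) were at least 2-fold higher in mural cells than in all other wild-type cells, and 518 of 2591 (20%) were so in the mutant library. At least 2-fold lower were 137 (4.02%) and 80 (3.09%). Because the cells were chosen by their expression, these ratios describe them and are no test.

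The contractile genes had some of the highest ratios. Cnn1, the actin-binding protein calponin, stood at 1513 CPM against 7.43 in the other wild-type cells, a ratio of 204 (interval 158 to 266). In the mutant library it stood at 746 against 4.13 CPM, a ratio of 180 (124 to 269). Lmod1, which nucleates actin filaments in smooth muscle, was 192 and 516 times as high as in other cells. Actg2, enteric smooth muscle actin, was 193 and 95.8 times as high. For Tagln the ratio was 140 in the wild-type but 21.9 in the mutant library. The level outside mural cells was 75.9 and 288 CPM, and the level in mural cells 10613 and 6293 CPM. Acta2 was 88.4 and 62.1 times as high.

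Genes of pericytes and of vascular signaling were also set apart. Higd1b stood at 144 CPM against 0.229 in other wild-type cells, a ratio of 629 with a wide interval (170 to 5263), and at 529 against 2.63 in other mutant cells, a ratio of 201 (126 to 335). P2rx1, an ATP-gated cation channel of smooth muscle, had ratios of 231 (138 to 418) and 973 (259 to 8201), and the muscle gene Fbxl22 had ratios of 318 and 101. The potassium channel subunit Kcnj8 was 41.6 and 33.8 times as high, and its partner Abcc9, the sulfonylurea receptor, 36.0 and 32.2 times. Pdgfrb, the PDGF receptor of mural cells, was 7.69 and 12.1 times as high. The laminin-binding integrin gene Itga7 had ratios of 94.4 and 43.8, and the acid-sensitive potassium channel gene Kcnk3 had ratios of 78.9 and 150. Msx2 and Rasl12 were also among the 15 highest in the wild-type library, and Rasgrp2, Rasl11a, Rbpms2 and Gm13889 in the mutant library. Tinagl1, a secreted matrix protein gene, was 104 and 157 times as high as in all other cells but reached 391 and 497 CPM in endothelial cells. The gap junction gene Gja4 likewise stood at 359 and 484 CPM in mural cells and at 636 and 239 CPM in endothelial cells. Neither gene is therefore limited to mural cells in these libraries.

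Tendon genes outside the rule were low in mural cells. Tnmd, tenomodulin, was 0.0387 and 0.209 times the level of all other cells, and Fmod, the collagen-binding proteoglycan fibromodulin, 0.0440 and 0.188 times. Col1a1, the type I collagen α1 chain, was 0.104 and 0.225 times the level of other cells. It was also found in 91.0% of wild-type and 25.4% of mutant immune cells, which should lack it. Scx is limited by the rule, and per the study's notes its count also takes in the ScxGFP reporter, so it is not the level of the endogenous gene. As a description, it stood at 313 and 56.2 CPM, with 14475 and 3925 CPM in all other cells. It was found in 64.1% and 14% of mural cells and in 71.4% and 13% of immune cells. The part of free RNA in these shares was not tested.

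**Figure D2:**
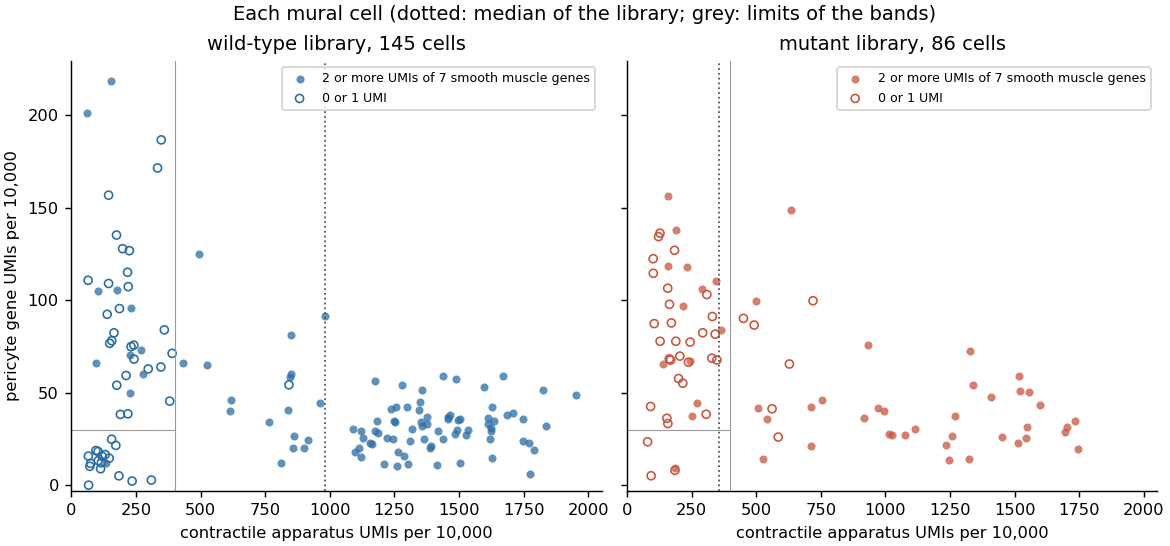
Each point is 1 mural cell of the wild-type or the mutant library, with contractile UMIs per 10000 on 1 axis and pericyte UMIs per 10000 on the other. Filled points have at least 2 UMIs of 7 smooth muscle genes, open points 0 or 1, dotted lines mark the medians (981 and 355 contractile UMIs) and grey lines the range limits of 400 and 30.

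Mural cells did not form 1 population. The summed level of 37 contractile apparatus genes ranged from 60.4 to 1955 UMIs per 10000 in wild-type cells with a median of 981, and from 79.7 to 1746 with a median of 355 in mutant cells. In the wild-type library 55 cells were under 400, 6 were between 400 and 800, and 84 were at 800 or above. The mutant numbers were 44, 14 and 28. Few wild-type cells thus lay between the extremes, and in the mutant library more of the cells lay in the middle and on the low side. For description the cells were split into ranges. A contractile range held cells at 400 or more. A pericyte range held cells below 400 with at least 30 UMIs per 10000 over 18 pericyte genes, and the remainder was low in both. These are ranges of a score, not cell types, and their limits were chosen after the values had been seen.

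The contractile range held 90 wild-type cells, 3.81% of the library (3.07 to 4.66), and 42 mutant cells, 1.62% (1.17 to 2.18). The pericyte range held 40 cells, 1.69% (1.21 to 2.30), and 41 cells, 1.58% (1.14 to 2.14). The smaller mural share of the mutant library was found in the contractile range and, in fewer cells, in the low range, while the intervals of the pericyte range overlapped almost fully. On thinned cells the contractile range held 3.63% and 1.63% and the pericyte range 1.35% and 1.31% of cells. The contractile range was 62.1% (53.6 to 70.0) of wild-type and 48.8% (37.9 to 59.9) of mutant mural cells, and on this base the intervals overlapped. At least 2 UMIs over 7 smooth muscle genes (Cnn1, Lmod1, Synpo2, Actg2, Pln, Casq2 and Des) were found in 100 of 145 wild-type mural cells, 69.0% (60.8 to 76.4), and in 49 of 86 mutant cells, 57.0% (45.8 to 67.6). On thinned cells the shares were 64.4% and 52.1%, and the intervals overlapped. The same count was met by 0.529% and 0.541% of immune cells. When at most 1 UMI over 7 pericyte genes (Kcnj8, Abcc9, Higd1b, Ndufa4l2, Cox4i2, Vtn and Steap4) was also required, and the reverse, 15.9% and 9.30% of cells held smooth muscle genes alone, 27.6% and 38.4% pericyte genes alone, and 53.1% and 47.7% both. These shares depended on depth. On thinned cells they were 31.1% and 23.3%, 25.2% and 39.7%, and 33.3% and 28.8%.

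The low range went against the mural label. It held 15 wild-type cells, whose median over the rule's genes was 4 UMIs, and 3 mutant cells, whose median was 11. The wild-type cells had 4656 CPM of Dcn (decorin), 2054 CPM of Lum (lumican), 5140 CPM of Mfap4 and 20877 CPM of Col1a1. In the contractile range these levels were 349, 16.9, 86.8 and 2123 CPM. The summed level of 12 fibroblast markers was 11048 CPM in the low range, 1442 in the contractile range, 2578 in the pericyte range and 14587 in all other wild-type cells. In the mutant library it was 10981, 1550, 2581 and 15041 CPM in the same order. The low range is therefore described by its rule alone, and on thinned cells it shrank to 1 wild-type cell and no mutant cell.

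The genotypes were then compared within mural cells. Of 3519 genes with at least 0.2 UMI per mural cell in either library, 177 (5.03%) were at least 2-fold higher in the mutant library and 147 (4.18%) at least 2-fold lower. The median gene lay 0.08 higher on the log2 scale. The interval excluded 1 for all 177 higher genes and for 124 of the 147 lower ones. For the higher genes the UMI minimum and the 2-fold limit already fix this outcome, so it is no support for them. Cells of other classes differed between the libraries too. Of the higher genes 34, and of the lower genes 36, were also at least 2-fold apart in the same direction in all other cells. Among the lower genes, 9 were at least 2-fold lower with an interval below 1 in mural, immune, endothelial and remaining tendon cells alike: Gapdh, Gm10260, Gng5, Gpx4, Myl6, Ppia, Rpl35, Rps6 and Scx, the last a gene of the rule. Dlk1 and Postn were higher by the same measure in all 4 classes. This criterion was chosen after the values had been seen. These genes differed between the libraries in unlike cell types at once and are not particular to mural cells.

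**Figure D3:**
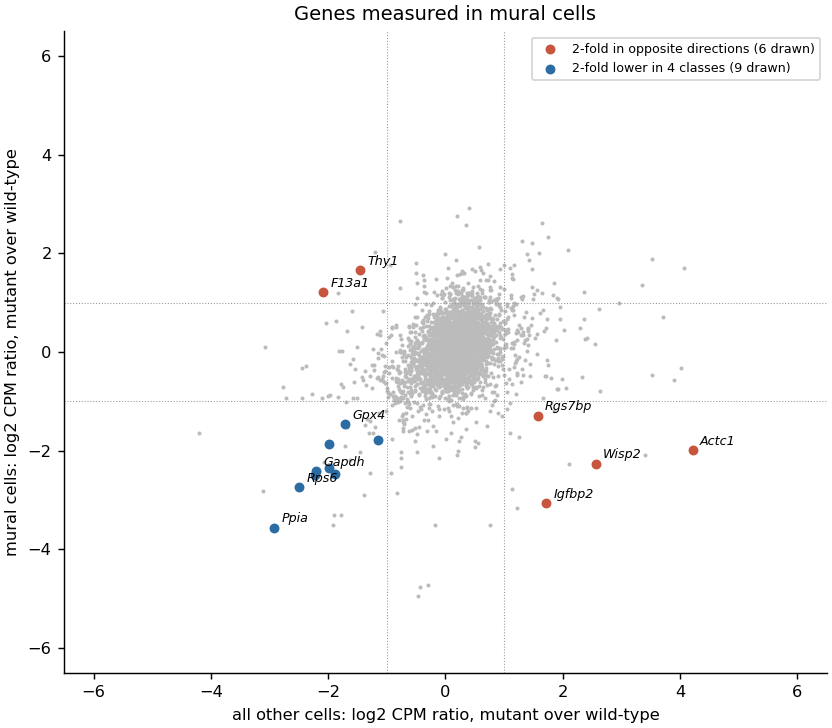
Each point is a gene, with the mutant over wild-type ratio (log2) in all other cells on the horizontal axis and in mural cells on the vertical axis. Of the 3519 genes measured 3511 are drawn, 6 named genes at least 2-fold apart in opposite directions, with at least 0.5 UMI per mural cell and both intervals away from 1, are red, and the 9 genes at least 2-fold lower in 4 cell classes with intervals below 1 are blue.

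The contractile apparatus was lower as a group over all mutant mural cells. Its 37 measured genes summed to 95223 CPM in wild-type and 66584 CPM in mutant cells, a ratio of 0.699 (0.688 to 0.711). Outside mural cells the summed ratio of the list was 0.5675 (0.543 to 0.593) in immune cells and 0.760 (0.752 to 0.768) in all other cells pooled. In endothelial cells it was 0.918, with an interval that included 1. The lower sum was thus not limited to mural cells. Within mural cells the direction depended on the cells taken. The ratio was 0.759 (0.746 to 0.773) among cells with at least 2 UMIs of the 7 smooth muscle genes and 1.08 (1.02 to 1.13) among the 45 and 37 cells with 0 or 1. Of the 37, 10 were higher in the mutant, 1 (Tpm4) was at least 2-fold higher and 2 (Cnn1 and Myl6) at least 2-fold lower, beside 5.03% and 4.18% of all genes, with a median of −0.18 on the log2 scale against 0.08 for all genes, of which 56.9% were higher in the mutant. Without Myh11 of the rule the summed ratio was 0.698 (0.686 to 0.710). Acta2 stood at 23025 CPM in 128 of the 145 wild-type cells and at 15600.2 CPM in 79 of the 86 mutant cells, a ratio of 0.678 (0.655 to 0.701). Its ratio in all other cells was 0.964 (0.908 to 1.02). Tagln stood at 10613 and 6293 CPM, a ratio of 0.593, whereas in all other cells it was 3.79 times as high in the mutant library. Actg2 stood at 3109.7 and 1597 CPM, 0.513 (0.462 to 0.570), and Cnn1 at 0.493 (0.422 to 0.574). Ppp1r14a, an inhibitor of myosin phosphatase, had a ratio of 0.563, and Tpm2, β-tropomyosin, 0.679, with 0.694 in all other cells. These 6 genes had 0.493 to 0.679 of the wild-type level. Crip1, a LIM domain protein gene, stood at 20499 and 11612 CPM, a ratio of 0.566 (0.545 to 0.589), and was as low in all other cells, at 0.539. Filip1l stood at 0.545 (0.390 to 0.749), with 1.13 in all other cells.

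Several other contractile genes lay closer to the wild-type level. Myl9 stood at 0.878, Myh11, smooth muscle myosin heavy chain and one of the rule's genes, at 0.798, and Csrp1 at 0.910. Lmod1 stood at 0.909 (0.681 to 1.2), Cald1, caldesmon, at 0.978 (0.872 to 1.10) and Mylk, myosin light chain kinase, at 0.988 (0.845 to 1.15), with intervals that included 1. Tpm4, a cytoskeletal tropomyosin, was 2.00-fold higher (1.74 to 2.30), and Des, the muscle intermediate filament desmin, 1.81-fold higher (1.26 to 2.58). Myl6 stood at 0.178 but belongs to the genes lower in all 4 classes. Of 12 contractile genes listed as TGFβ targets in smooth muscle, 11 were lower in the mutant and 1 was at least 2-fold lower. All 12 also belong to the contractile apparatus list, so this is not a separate result. Of all genes 56.9% were higher and 4.18% at least 2-fold lower. The summed ratio of the target list was 0.781 (0.765 to 0.798) in cells with at least 2 smooth muscle UMIs. It was 1.40 (1.27 to 1.53) in cells with 0 or 1. By range it was 0.905 (0.886 to 0.924) in the contractile, 0.991 (0.901 to 1.09) in the pericyte and 1.86 (1.45 to 2.37) in the low range. Over whole classes it was 0.702 (0.688 to 0.717) in mural and 0.715 (0.569 to 0.894) in immune cells. Endothelial cells stood at 0.852 (0.672 to 1.08) and all other cells pooled at 0.872 (0.852 to 0.892). The 14 measured smooth muscle markers, several of which are also contractile genes, had a median of −0.38 on the log2 scale, with 1 at least 2-fold lower, 12 lower in all and a summed ratio of 0.654. This direction also depended on the cells taken. The summed ratio was 0.726 (0.708 to 0.745) with at least 2 smooth muscle UMIs and 1.71 (1.51 to 1.94) with 0 or 1.

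The difference was smaller within the contractile range, where the summed ratio of the contractile genes was 0.864 (0.849 to 0.880). The genes differed in what remained. Acta2 had a ratio of 0.880 (0.850 to 0.912), Tagln 0.771 (0.730 to 0.814), Actg2 0.684 (0.614 to 0.759), Cnn1 0.666 (0.569 to 0.776) and Ppp1r14a 0.681 (0.575 to 0.802), all still below 1. In the pericyte range Acta2 stood at 1.08 (0.904 to 1.29) and Tagln at 1.09 (0.780 to 1.52). Myl9 and Tpm1 were slightly higher in the contractile range, at 1.12 (1.06 to 1.18) and 1.10 (1.01 to 1.2), and Myh11 was at 1.04 (0.897 to 1.2). The range was defined on the sum of these genes, which limits how far its own sum can differ. Fewer cells in the contractile range and lower levels of some of these genes within it were thus found together.

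**Figure D4:**
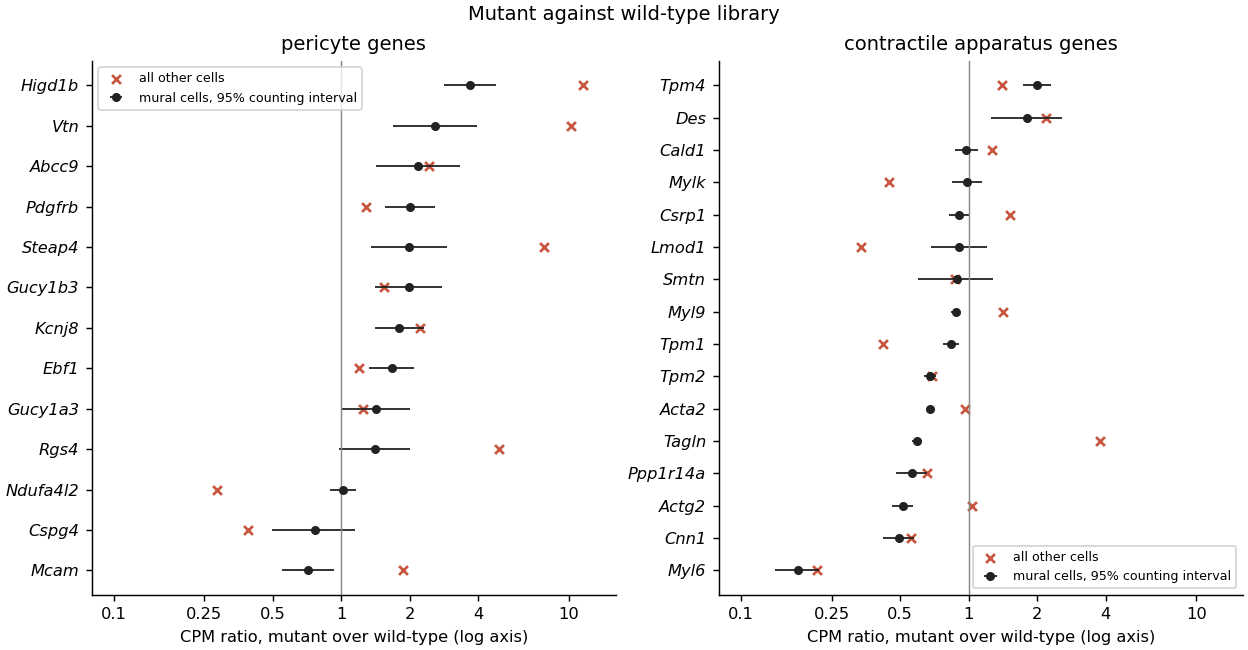
Mutant over wild-type ratio (log axis) of 13 pericyte genes and 16 contractile genes in mural cells, with 95% counting intervals, and crosses for the ratio in all other cells. Most pericyte genes lie above 1 and most contractile genes below it, with Tpm4 and Des above 1.

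Pericyte genes lay on the other side. Of 18 measured, 16 were higher in mutant mural cells and 4 at least 2-fold (Higd1b, Vtn, Abcc9 and Pdgfrb), beside 56.9% and 5.03% of all genes, with a median of 0.50 on the log2 scale and a summed ratio of 1.36 (1.29 to 1.43). The list includes Rgs5 and Notch3 of the rule. Without them 14 of 16 were higher, the median was 0.62 and the summed ratio 1.37 (1.28 to 1.46). Outside mural cells the summed ratio of the 18 genes was 3.03 (2.15 to 4.35) in endothelial cells. It was 0.850 (0.566 to 1.26) in immune cells and 0.708 (0.683 to 0.734) in all other cells pooled. Higd1b was 3.68-fold higher (2.83 to 4.80), with 101 UMIs in 42 wild-type cells and 141 UMIs in 43 mutant cells. Vtn, vitronectin, was 2.58-fold higher (1.68 to 3.96), but stood at 1.23 (0.765 to 1.97) in the pericyte range, at 0.956 among cells with 0 or 1 smooth muscle UMIs and at 0.533 without cells holding muscle, Schwann or haemoglobin UMIs. Abcc9 was 2.18-fold (1.42 to 3.33) and Pdgfrb 2.01-fold (1.56 to 2.58) higher. Kcnj8 was 1.80-fold higher, Rgs5, the regulator of G protein signaling used in the rule, 1.38-fold, and Ebf1, a transcription factor, 1.66-fold. Mcam, an adhesion molecule, stood at 0.716 (0.547 to 0.927). Cspg4, the NG2 proteoglycan, stood at 0.763 (0.494 to 1.15), at 0.531 (0.286 to 0.917) in the contractile range and at 3.53 (1.2 to 12.5) in the pericyte range, where it had 5 and 14 UMIs.

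In the contractile range the summed ratio of the pericyte genes was 1.16 (1.08 to 1.25). The pericyte range was defined in part on this sum. Within it the summed ratio was 1.10 (1.02 to 1.18), and most of the single ratios above were smaller. Kcnj8 stood at 0.915 (0.698 to 1.2), Steap4 at 0.904 (0.596 to 1.36) and Pdgfrb at 1.67 (1.2 to 2.35). Higd1b stayed 2.83-fold higher there (2.00 to 4.05), and was 2.13-fold higher (1.32 to 3.39) in the contractile range. Higd1b thus had an interval above 1 in both ranges, whereas the interval of Kcnj8 included 1 in the pericyte range. Higd1b was also 11.5-fold higher (2.81 to 101) in all other mutant cells, on 2 wild-type and 21 mutant UMIs. Of these, 0 and 14 were in endothelial cells, so the higher level was not limited to mural cells.

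Several genes were lower in the mutant contractile range and had few UMIs in the pericyte range of either library. Igfbp2, an insulin-like growth factor binding protein gene (chr1:72824503-72852474, plus strand), had 947 UMIs in 76 wild-type cells and 43 UMIs in 13 mutant cells, a ratio of 0.120 (0.0860 to 0.162). In the wild-type library 937 of those UMIs were in the contractile range, where the level was 1984 CPM against 234 in the mutant. The pericyte range had 0 wild-type and 9 mutant UMIs, and the ratio among cells with 0 or 1 smooth muscle UMIs was 1.91 (0.714 to 5.12). In all other cells Igfbp2 was 3.28-fold higher in the mutant library. Wisp2, a CCN family gene, showed the same arrangement, at 802 and 219 CPM in the contractile range, 0 and 1 UMIs in the pericyte range and 5.91-fold higher in other mutant cells. Id4, an inhibitor of basic helix-loop-helix transcription factors, stood at 0.267 (0.188 to 0.370) over all mural cells and at 0.263 (0.173 to 0.387) in the contractile range, with 2.16 (0.785 to 6.48) in the pericyte range and 0.864 in other cells. Col12a1, a fibril-associated collagen gene, stood at 0.333 over all mural cells and at 0.268 in the contractile range, with 1.68 (0.512 to 5.88) in the pericyte range.

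Other genes were higher in the mutant contractile range. Thy1 was 6.47-fold higher there (3.40 to 12.8) against 1.65-fold in the pericyte range, and 0.364 times as high in all other mutant cells. Tnfrsf1a, the type 1 TNF receptor gene, was 5.46-fold higher (2.85 to 10.7), Cxcl12, a chemokine gene, 5.64-fold (3.07 to 10.6) and Igfbp5 4.30-fold (3.21 to 5.77). In the pericyte range these stood at 1.5 (0.911 to 2.48), 0.742 (0.512 to 1.06) and 1.65 (0.992 to 2.78). Dlk1, an imprinted gene for a Notch-like protein, was 3.0-fold higher (2.11 to 4.25) in the contractile range and at 1.01 (0.853 to 1.19) in the pericyte range. Meg3, the maternally expressed RNA of the same locus, was 2.28-fold and 1.43-fold higher. The Thy1, Tnfrsf1a and Cxcl12 counts in the contractile range were small, with 16, 17 and 19 UMIs in the wild-type library.

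Several genes were higher in mutant mural cells as a whole. Serpine2, a secreted inhibitor of serine proteases, stood at 874 CPM in 117 wild-type cells and at 3651 CPM in 80 mutant cells, 4.18-fold higher (3.77 to 4.63), and was 4.28-fold higher in all other cells too. In the pericyte range it reached 2262 and 7380 CPM. Mgp, matrix Gla protein, was 3.36-fold higher (2.89 to 3.91) in the pericyte range. It stood at 1.23 (0.975 to 1.54) in the contractile range, an interval that included 1, and at 0.774 (0.621 to 0.956) in the low range. Col15a1, a basement membrane collagen gene, was 2.82-fold higher over all mural cells (2.01 to 3.97), against 1.02 in all other cells pooled and 2.20 (1.43 to 3.49) in endothelial cells, and 3.09-fold higher (1.85 to 5.34) in the pericyte range. Gng11, a G protein γ subunit, was 2.73-fold higher (2.34 to 3.19), against 0.775 in all other cells pooled, 1.94 (1.53 to 2.46) in endothelial cells and 2.02 (0.973 to 4.33) in immune cells. Both genes were thus higher in mutant endothelial cells too. Cdkn1c, an imprinted cell cycle inhibitor, was 3.95-fold higher, Socs3, a feedback inhibitor of cytokine signaling, 3.47-fold, and Fabp4, a fatty acid binding protein, 3.24-fold, with 2.61, 1.66 and 2.14 in all other cells pooled. Endothelial cells alone had 0.435 (0.187 to 0.963), 0.820 (0.331 to 2.05) and 0.684 (0.616 to 0.759), and Fabp4 was 11.1-fold higher in the remaining tendon cells. Without the cell richest in each gene the ratios in mural cells were 3.04, 3.20 and 2.45.

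Some of the largest ratios rested on few cells. Of the 141 mutant UMIs of Prg4, lubricin, 139 were in 1 cell, and the ratio of 6.29 became 0.178 without the richest cell of each library. The 4 haemoglobin genes, Hba-a1, Hba-a2, Hbb-bs and Hbb-bt, were lower in the mutant, but 2 wild-type mural cells held over 10% haemoglobin UMIs, and 1 cell held most of them. Of the 390 wild-type UMIs of Rgcc, a regulator of the cell cycle, 293 were in the low range, and 10 cells held all of them. Its ratio was 0.101 over all mural cells, but 3.07 (0.572 to 16.5) among cells with at least 2 smooth muscle UMIs, where it had 4 UMIs in each library. Nts, neurotensin, was found in 6 wild-type cells and 1 mutant cell. These genes are given for completeness of the rule that named them.

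Signaling genes were taken by pathway. In the Notch list of 8 measured genes, 5 were higher, 1 (Dlk1) at least 2-fold higher and 1 (Hey2) at least 2-fold lower, with a median of 0.22 on the log2 scale. Of all genes 56.9% were higher, 5.03% at least 2-fold higher and 4.18% at least 2-fold lower, and 5 of 8 is near the first share. Notch3, one of the rule's genes, stood at 343 and 367 CPM, a ratio of 1.07 (0.838 to 1.36). Its target Heyl stood at 215 and 210 CPM, a ratio of 0.977 (0.706 to 1.34), and Nrarp, a feedback inhibitor, at 1.43 (0.991 to 2.05). Hes1 stood at 1.26 (0.970 to 1.63) and the ligand Jag1 at 0.878 (0.383 to 1.85). Hey2, a target linked to arterial cells, had 38 UMIs in 30 wild-type cells and 4 UMIs in 4 mutant cells, a ratio of 0.277 (0.0719 to 0.770). The receptor and most targets thus had intervals that included 1 over all mural cells. In the contractile range Hes1 was 1.85-fold (1.34 to 2.53), Nrarp 1.93-fold (1.28 to 2.90) and the summed list 1.5-fold (1.30 to 1.72) higher. Dlk1 made up 159 and 476 CPM of the 1505 and 2254 CPM of that list. In the pericyte range the list stood at 1.04 (0.904 to 1.18), Heyl at 1.83 (1.03 to 3.31), Nrarp at 0.630 (0.249 to 1.48) and Notch3 at 0.765 (0.494 to 1.17). Which group differed more depended on the split. The list stood at 1.31 (1.16 to 1.49) with at least 2 smooth muscle UMIs and at 1.47 (1.28 to 1.69) with 0 or 1. In the PDGF list of 4, 2 were higher. Pdgfrb is given above, and the ligand gene Pdgfa was 1.81-fold higher (1.35 to 2.42).

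Of 16 measured TGFβ and BMP genes, 7 were higher in the mutant, 1 (Tgfbi) at least 2-fold and 3, among them Ctgf and Id4, at least 2-fold lower, with a median of −0.04 on the log2 scale. The shares of all genes were 56.9%, 5.03% and 4.18%. The list joined opposite differences. Its summed ratio was 0.822 (0.754 to 0.895) in cells with at least 2 smooth muscle UMIs and 1.38 (1.21 to 1.59) in the others. Ctgf, connective tissue growth factor, had 74 UMIs in 38 wild-type cells and 7 UMIs in 7 mutant cells, 0.249 (0.0968 to 0.539), with 1.16 in all other cells. Id1 stood at 0.566 (0.392 to 0.801) and Id3 at 0.969 (0.854 to 1.10). The ligand genes Tgfb2 and Tgfb3 stood at 0.977 (0.647 to 1.45) and 1.28 (0.857 to 1.90), and the BMP receptor gene Bmpr1a at 1.96 (1.17 to 3.25). Tgfbi stood at 2.44, but at 1.06 without the richest cell of each library. The targeted gene Tgfbr2 itself had 12 UMIs in wild-type and 6 in mutant mural cells, 17.1 and 22.5 CPM, a ratio of 1.32 (0.406 to 3.79). A 3′ count does not read the floxed part, so this value says nothing about deletion, and at this depth a difference was not detectable.

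The matrix of mural cells differed gene by gene. Of 19 basement membrane genes 11 were higher and 1 (Col15a1) at least 2-fold, with a median of 0.06. Col4a1, the type IV collagen chain, stood at 1233 and 1477 CPM, and Hspg2, perlecan, at 0.665 (0.474 to 0.917). Of 29 fibrillar and elastic matrix genes 14 were higher, 5 at least 2-fold and 1 (Col12a1) at least 2-fold lower, with a median of −0.22. For both lists the shares of all genes were 56.9% higher, 5.03% at least 2-fold higher and 4.18% at least 2-fold lower. Sparcl1 was 2.63-fold higher (2.29 to 3.03), Fbln5, fibulin 5, 2.77-fold (1.73 to 4.44) with 31 of its 38 wild-type UMIs in the low range, 9.72-fold without that range, and Mgp 2.12-fold (1.93 to 2.32), the last being 3.78-fold higher in all other cells. Eln, elastin, stood at 6318 and 4449 CPM, a ratio of 0.704 (0.660 to 0.751), whereas it was 5.03-fold higher in all other mutant cells. Elastin and the contractile genes thus lay below the wild-type level in the same cells, and elastin was 0.746 (0.692 to 0.803) in the contractile range but 2.21-fold higher (1.72 to 2.85) in the pericyte range. Col1a1 stood at 0.538 in mural cells, 0.187 in immune cells and 0.249 in all other cells. Of its 3297 wild-type UMIs in mural cells 1901 were in the 15 cells of the low range, and without that range the ratio was 0.711. The part of free RNA in it was not tested.

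The remaining lists mostly held genes near or above the wild-type level, beside 56.9% of all genes that were higher in the mutant and 5.03% that were at least 2-fold higher. Of 10 calcium and ion channel genes 8 were higher and 2 (Abcc9 and the chloride channel gene Ano1) at least 2-fold. Of 13 G protein and cyclic GMP genes 10 were higher and 2 (Rgs16 and Gng11) at least 2-fold, while the channel gene P2rx1 stood at 0.616 (0.463 to 0.809). In the contractile range P2rx1 stood at 0.810 (0.606 to 1.07), and it had no UMI in the pericyte range of either library. Of 16 mural transcription factor genes 7 were higher and 1 (Tbx2) at least 2-fold, with 13 and 20 UMIs, and Foxs1 stood at 1.38 (0.969 to 1.95). Of 16 angiogenic and chemokine genes 13 were higher, 4 at least 2-fold and 1 (Igfbp2) at least 2-fold lower. Of 16 immediate early genes, which tissue digestion can also induce, 13 were higher and 4 at least 2-fold (Ier3, Atf3, Klf6 and Socs3). Atf3 and Klf6 stood at 0.796 and 0.997 when only the 32 and 33 mural cells without muscle, Schwann or haemoglobin UMIs were used. Fos was 1.77-fold higher, against 2.03-fold in all other cells. Of 9 imprinted growth genes 8 were higher and 5 at least 2-fold, with a median of 1.10 on the log2 scale. One of the 5, the noncoding RNA gene H19, stood at 2.50 (1.71 to 3.66), with 35 of its 57 mutant UMIs in the 3 low-range cells, and at 0.940 without that range and 0.277 on thinned cells. Their summed level was also higher in all other mutant cells, 13976 against 8067 CPM, so this group did not set mural cells apart.

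Cycling cells were more frequent among mural cells than among the remaining tendon cells. At least 2 UMIs over 12 cell cycle genes were found in 17.9% and 23.3% of mural cells and in 9.28% and 8.90% of all other cells. On cells thinned to 1583 UMIs, which left out 10 and 13 mural cells as too shallow, the shares were 16.3% (10.5 to 23.6) and 20.5% (12 to 31.6) in mural cells, 15.6% and 8.82% in immune cells, 15% (3.21 to 37.9) and 29.2% (12.6 to 51.1) in the few endothelial cells, and 6.44% (5.34 to 7.69) and 5.45% (4.48 to 6.55) in the remaining tendon and connective tissue cells. In both libraries the mural share lay above that of the remaining tendon cells with intervals that did not overlap, and the mural intervals of the genotypes overlapped widely. All 11 measured cell cycle genes were higher in mutant mural cells, none of them 2-fold, beside 56.9% and 5.03% of all genes, with a median of 0.53 on the log2 scale and a summed level of 1180 and 1818 CPM. The direction by group depended on the split, and the limits of the ranges were chosen after the values had been seen. With at least 2 smooth muscle UMIs the summed ratio was 1.69 (1.45 to 1.96) and with 0 or 1 it was 1.22 (1.02 to 1.46). By range the summed level was 815 and 1618 CPM in the contractile range, a ratio of 1.99 (1.67 to 2.35), and 2700.5 and 1956 CPM in the pericyte range, a ratio of 0.724 (0.610 to 0.859).

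**Figure D5:**
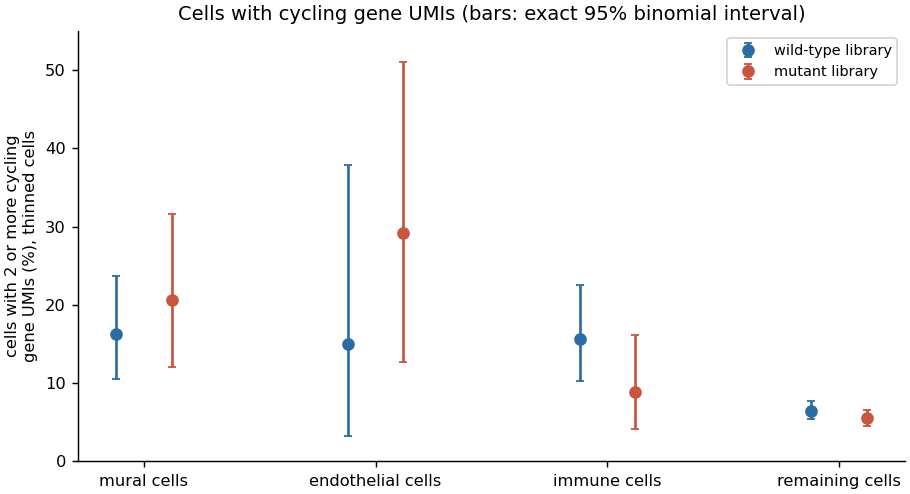
Share of cells with at least 2 UMIs over 12 cell cycle genes, in percent with 95% binomial intervals, by cell class in each library, after thinning each cell to 1583 UMIs. Mural cells, at 16.3% and 20.5%, lie above the remaining tendon and connective tissue cells, at 6.44% and 5.45%.

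Markers of other cell types were present at low levels in mural cells, and their part in the results was not tested. Of 12 endothelial markers 5 had no UMI in each library, among them Kdr, Cldn5 and Tie1, of which the last 2 are in the rule. The list summed to 371 and 469 CPM, of which Esam, an adhesion molecule gene, made up 269 and 371. Of 12 immune markers 5 and 8 had no UMI, and the list summed to 22.8 and 15 CPM. Of 14 skeletal muscle markers 7 and 10 had no UMI, and the list summed to 56.9 and 37.5 CPM. Of 12 tenocyte markers 0 and 1 had no UMI. The list summed to 1082 and 1012 CPM, with Scx (313 CPM) and Tnmd (315 CPM), the tendon gene tenomodulin, as its most abundant members in the wild-type and mutant cells.

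Fibroblast markers summed to 2912 and 2830 CPM, led by Dcn at 968 and 1207 CPM. The near-equal sums joined opposite differences, 1.56 (1.37 to 1.76) in cells with at least 2 smooth muscle UMIs and 0.550 (0.488 to 0.618) in the others, the same groups for which contractile ratios are given above. The most abundant Schwann cell marker was Cryab, a small heat shock protein gene, at 771 and 746 CPM, and the defining Schwann cell gene Sox10 had no UMI in either library. Other Schwann cell genes differed. Mbp had no UMI in wild-type mural cells, and 5, 1 and 27 UMIs in the mutant contractile, pericyte and low ranges. Pmp22 had ratios of 1.47 (0.993 to 2.15), 0.511 (0.350 to 0.735) and 3.07 (2.02 to 4.66) in these ranges. Of 8 cartilage markers 2 had no UMI in each library, and the list summed to 142 and 63.7 CPM. Red blood cell genes summed to 7749 and 266 CPM, mainly through the haemoglobin-rich wild-type cells. Of these lists the red blood cell and cartilage lists differed by 2-fold or more between the libraries.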

How the data were processed

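The authors processed reads from the 10x Chromium 3′ kit with Cell Ranger against mm10 (version 1.2.0 per the labels, while the methods name another version), and deposited for each library a filtered matrix of UMI counts, not normalized, over 27998 genes. The matrices held 9451606 UMIs in 2364 wild-type cells and 8250248 UMIs in 2592 mutant cells.

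Counts were read with Scanpy 1.11.5 and analysed with Python 3.11.15, NumPy 2.4.6, SciPy 1.17.1 and pandas 2.3.3, and plots were drawn with Matplotlib 3.10.9. No cell was filtered beyond the rule for mural cells. Counts were summed per class and library and scaled to 1000000 UMIs. Cells are not replicates and each genotype had 1 library, so no p-value was computed. Ratios carry exact conditional binomial intervals and shares exact Clopper-Pearson intervals (95%), for counting error only. Genes were measured with at least 0.2 UMI per mural cell. Named genes were the given markers, the 15 with the largest ratio of mural over other cells per library, the 12 largest mutant over wild-type ratios in each direction (both with at least 0.5 UMI per mural cell), list genes with at least 0.2 UMI and Tgfbr2. Genes named for opposite directions or ranges were chosen after their values were seen. Other classes were immune (at least 5 UMIs of the immune genes), endothelial and haemoglobin-rich cells (over 50% haemoglobin UMIs), and the remainder. Scrublet, within Scanpy, called doublets, none of which were removed.

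The members of the mural class and the gene lists were chosen with earlier results of these data known. Range limits of 400 and 30 were chosen after seeing the values per cell. Scripts were tested on simulated data. Promoter sequences and gene starts are from RefSeq. Some items of these lists are not reported here.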

Additional observations from a re-analysis of the deposited data

Results flagged for a closer look

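In 6 of the genes reported here, among those with at least 0.5 UMI per mural cell, mural cells and all other cells differed between the libraries by at least 2-fold in opposite directions, with both intervals away from 1. The differences between the classes were not tested, since each genotype had 1 library. Lower in mutant mural cells and higher in the other mutant cells were Igfbp2 (ratio 0.120 against 3.28), the cardiac actin gene Actc1 (0.251 against 18.6), Wisp2 (0.208 against 5.91) and Rgs7bp, which anchors G protein regulators at the membrane (0.408 against 2.98). Higher in mutant mural cells and lower in the other mutant cells were Thy1 (3.15 against 0.364) and F13a1, coagulation factor XIII A (2.32 against 0.235). For Igfbp2 this rested on the contractile range. Among mural cells with 0 or 1 smooth muscle UMIs its ratio was 1.91, and the pericyte range had 0 wild-type and 9 mutant UMIs.

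Actc1 was counted 84 times in 31 wild-type mural cells and 8 times in 4 mutant mural cells. Rgs7bp was counted 142 times in 67 cells and 22 times in 14 cells. F13a1 rested on 6 wild-type and 3 mutant cells, and without the cell richest in it in each library its ratio was 0.304.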

How the results depend on the processing

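Alternatives chosen after seeing the data are named as such. No paired analysis was possible because each genotype had 1 library. A ratio over 1 is higher in the mutant.

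The summed contractile ratio (0.699) was 0.724 with at least 2 and 0.679 with at least 5 UMIs required over the rule's genes, 0.680 without the 20 most abundant genes, 0.664 after centring on the median gene, and 0.730 as a mean of scaled cells. The centred pericyte ratio (1.36) was 1.29. With 3 UMIs required per gene group, 40.7% and 32.6% of cells held both groups and 18.6% of mutant cells smooth muscle genes alone. Cells thinned before the rule gave a wild-type share of 5.03%, 306 and 333 genes higher than in other cells, 33.3% and 23.1% with smooth muscle genes alone, 37.0% and 30.8% with both, contractile and pericyte ratios of 0.680 and 1.29, and 80 genes lower in the mutant. There Prg4 was at 0, H19 at 0.277, Ptn at 0.880 and F13a1 at 0.831.

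With a minimum of 0.05 UMI per cell, 962 genes were higher and 687 lower in the mutant, and 1407 and 1437 higher than in other cells. With 0.5 UMI the numbers were 47, 53, 308 and 216.

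Leaving out mural cells with muscle, Schwann or haemoglobin UMIs kept 32 and 33 cells, because that list holds genes mural cells express. Shares became 1.42% and 1.30%, cells with pericyte genes alone 37.5% and 63.6%, with both 37.5% and 27.3%, contractile and pericyte ratios 0.671 and 1.21, and 429 genes were higher and 357 lower. Atf3 was at 0.796, F13a1 at 0.372, H19 at 0.975, Hba-a2 at 1.11, Klf6 at 0.997, Prg4 and Tgfbi at 0 and Vtn at 0.533.

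After seeing the data, leaving out cells with 4 neural genes or haemoglobin put H19 at 0.987, Hba-a1 at 1.03 and Hba-a2 at 1.01. Leaving out the richest cell put F13a1 at 0.304 and Prg4 at 0.178. Leaving out the low range put F13a1 at 0.305, H19 at 0.940, Tgfbi at 0.924 and the contractile ratio at 0.667. Among cells with at least 2 smooth muscle UMIs, 344 genes were higher and 225 lower, the contractile and pericyte ratios were 0.759 and 1.22, and Rgcc was at 3.07. Among the others, 339 were higher and 502 lower, the ratios were 1.08 and 1.53, and Col12a1 was at 1.18, Id4 at 1.32, Igfbp2 at 1.91 and Vtn at 0.956. The causes were not tested. The 145 and 86 mural cells limit every share, and low counts limit the single genes.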
